A study of Mus musculus with 12 samples.

Results

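The genes described here are 32 genes of homologous recombination, the Fanconi anaemia pathway, DNA damage signalling and mismatch repair in B16F10, an established mouse melanoma line. They were taken by gene symbol from a list that was fixed with earlier results of these data known. All 32 were among the 24421 symbols counted in every sample. RNA sequencing was done on 3 replicates in each of 4 groups, all of the same cell line. Control cells received DMSO as the vehicle. DAC cells received 25 nM 5-aza-2'-deoxycytidine over 72 h. SFN cells were given sulforaphane in the last 48 h. DAC+SFN cells had 24 h of DAC before both agents were present for 48 h, so all groups were harvested at the same time. The labels give SFN as 5 nM for the single treatment and 5 µM for the combination, whereas the study's methods give 5 µM for both, so by the labels the SFN dose differed in every comparison between these groups. DAC is a nucleoside analog that enters DNA and traps DNA methyltransferases on it. SFN is an isothiocyanate of cruciferous vegetables, known for activating the Nrf2 antioxidant response.

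Homologous recombination repairs a broken chromosome by copying the sister chromatid, and it works after the DNA has been replicated. The broken ends are trimmed to single strands, BRCA1 and its partners bring in BRCA2, and a matching sequence is then found and copied. The Fanconi pathway unhooks crosslinks between the DNA strands: a core complex adds ubiquitin to the pair FANCD2 and FANCI, and repair then passes to homologous recombination. The kinases ATM and ATR sense breaks and stalled replication forks and signal through CHEK2 and CHEK1. MSH6 finds mismatched bases, and TDG cuts thymine or modified cytosine out of DNA. Many of these genes are transcribed most in cells that are replicating their DNA.

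Between 15880957 and 27291436 counts per sample fell on genes, so that 1 CPM (a count per 1000000 counts of the library) stood for 16 to 27 counts. The 11638 genes that reached 1 CPM in 3 or more samples were tested, and these held 31 of the 32 genes of the list. CPM values are scaled by TMM and n = 3 throughout. Adjusted p is that of edgeR's quasi-likelihood test after Benjamini-Hochberg adjustment over all genes tested, and a gene fell or rose where it was under 0.05. The labels only number the replicates, and the study's methods describe its treatments as repeated independently, so p-values rest on the spread between these repeats of 1 cell line. All 8 melanocyte markers were expressed, with a summed level of 22433 to 31212 CPM. With DAC+SFN Pmel (log2 fold change -0.36, adjusted p = 0.0129) and Tyrp1 fell and Slc45a2 rose (0.18, adjusted p = 0.0236). Of 12 markers of other cells, 9 were under the filter, with Adgre1 (macrophage) and Cdh5 (endothelium) at 0 counts in every sample. The sum of the 12 was 22.8 to 316 CPM in control, 25.8 to 364 CPM with DAC, 27.1 to 254 CPM with SFN and 37.4 to 256 CPM with DAC+SFN, and most of it was Col1a1. The macrophage marker Cd68 was 3.34 ± 1.28 CPM in control and 9.68 ± 1.45 CPM with DAC+SFN (adjusted p = 1.98e-05), and the fibroblast marker Pdgfra 2.56 ± 0.377 and 1.56 ± 0.302 CPM (adjusted p = 0.0249). With SFN alone 1 of the 3 tested markers of other cells rose and 1 fell (log2 fold changes from -0.84 to 1.11), and with DAC alone 0 passed. The part of these markers in the results below was not tested.

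Per kilobase of annotated exon, Msh6 had the highest control level of the list (39.0 ± 2.51 CPM per kb, SD), followed by Brca1 (33.1 ± 13.4), Nbn (26.0 ± 1.53), Rad50 (24.7 ± 2.95) and Topbp1 (24.1 ± 1.42). The spread of Brca1 reached its neighbours on both sides, and Nbn, Rad50 and Topbp1 overlapped each other. The lowest were Atr (1.95 ± 0.163 CPM per kb), Palb2 (1.86 ± 0.0805) and Fancc (1.65 ± 0.0985), and the spreads of Atr and Palb2 overlapped while that of Fancc lay just under them. Atr was at 46.2 CPM in control, and its low rank rests on 23629 annotated exon bases, the most of the list. Tdg was at the floor. The control replicates held 1, 5 and 6 counts of it, the DAC replicates 4, 3 and 2 counts, the SFN replicates 1, 1 and 2 counts and the DAC+SFN replicates 1, 1 and 1 count, so it was not tested. The annotation holds a processed pseudogene of it, Tdg-ps on chromosome 15, and the authors discarded reads that aligned to more than 1 place.

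With DAC+SFN, 19 of the 31 genes tested fell compared to control and 0 rose. Of all genes tested, 14.7% fell, but the list was chosen with earlier results of these data known. The median log2 fold change of the 31 was -0.30, and that of all genes was 0.0078. None was past 2-fold, the study's threshold. DAC+SFN was below the control of the same replicate number in 3 of 3 replicates for 26 of the 31 genes (26.1% of all genes tested). In 17 genes every DAC+SFN sample was below every control sample (14.3% of all genes tested). In bulk RNA, fewer cells that express a gene and less RNA per cell cannot be told apart. DESeq2 gave the same 19 genes. Without the replicate number in the model 10 of them remained (Bard1, Palb2, Brip1, Rad54b, Fancd2, Fanci, Rbbp8, Exo1, Blm and Chek1). Leaving a replicate number out of all 4 groups gave 7 genes without replicate 1, 7 without replicate 2 and 20 without replicate 3. The calls among all genes moved the same way, with 1476, 1776 and 4058 in either direction and 3683 with all samples.

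With single samples left out in turn, 13 of the 19 genes fell every time. The calls of Rad54l and Rad50 were lost without control replicate 1, control replicate 2, DAC+SFN replicate 1 or DAC+SFN replicate 2. Without DAC+SFN replicate 1 or 2 those of Fancb, Fancl and Nbn were lost as well. Fancb also rested on control replicate 1, Fancl on control replicate 3, and Nbn and Palb2 on control replicate 2. Where a call was lost, adjusted p was between 0.0509 and 0.134 in edgeR. Fancc passed without DAC+SFN replicate 2 (adjusted p = 0.0443), and Fanca (0.0277) and Mre11a (0.0301) passed without DAC+SFN replicate 3.

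**Figure D1:**
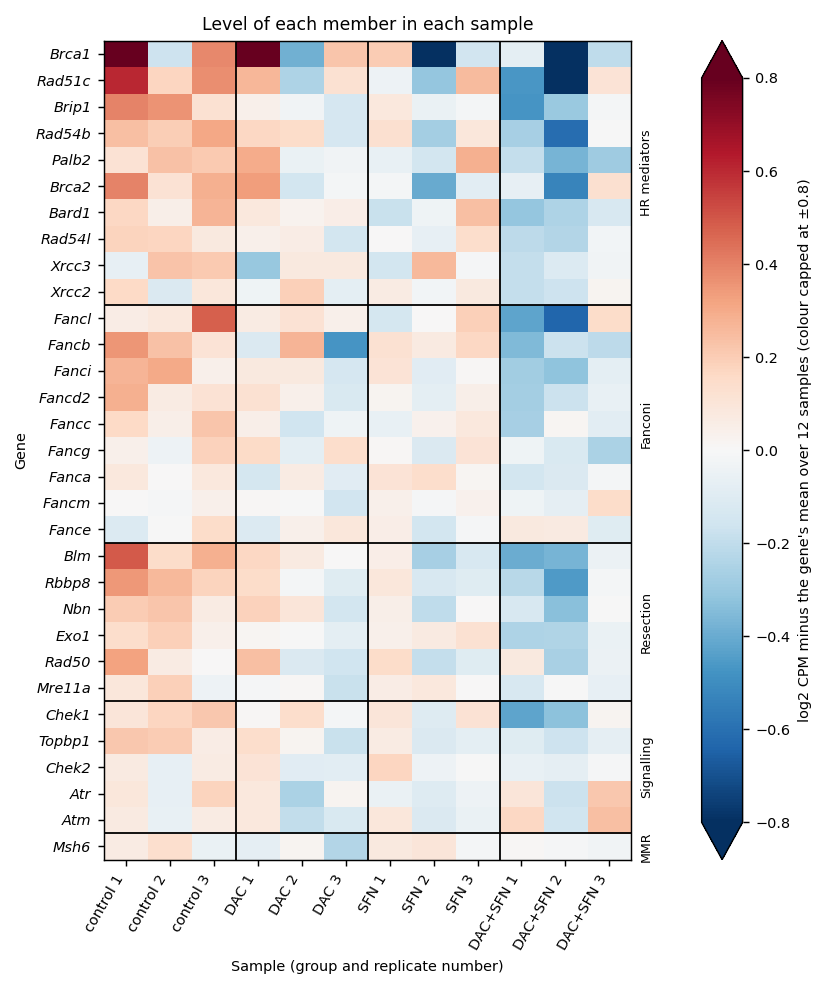
Heat map of the 31 genes tested (rows, by role and then by the change with DAC+SFN) in the 12 samples (columns, by group and replicate number). Colour is log2 CPM minus the mean of the gene over the 12 samples, and the columns of DAC+SFN replicates 1 and 2 are mostly blue while that of DAC+SFN replicate 3 is paler.

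The decrease was not even over the replicates. The median difference of the 31 genes from the control of the same number was -0.39 in replicate 1, -0.37 in replicate 2 and -0.16 in replicate 3 on the log2 scale. Among the 19 genes that fell, replicate 3 had the smallest decrease in 17. Among all 1705 genes that fell it had the smallest in 65.0%. Without DAC+SFN replicate 3, 21 of the 31 genes fell. The calls among all genes, in either direction, were then 4205, and 3683 with all samples.

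The mediators of recombination held the 2 largest changes, those of Brca1 and Rad51c, and 8 of 10 fell with DAC+SFN (median log2 fold change -0.44). Brca1, the ubiquitin ligase subunit that brings PALB2 and BRCA2 to breaks, fell by 42.0%. It was at 405, 179 and 262 CPM in control replicates 1, 2 and 3, at 383, 154 and 234 CPM with DAC, at 232, 107 and 181 CPM with SFN, and at 190, 111 and 175 CPM with DAC+SFN. The groups overlapped, because replicate 1 was high and replicate 2 low in each of them, but each DAC+SFN sample was below the control of its own number. The log2 fold change was -0.79 (SE 0.091, adjusted p = 3.03e-05, or 0.169 without the replicate number in the model). Brca1 lies on chromosome 11 from 101488764 to 101551955 in mm10, on the minus strand.

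Rad51c encodes a mediator that acts in homologous recombination and in crosslink repair. It was at 17.6, 13.04 and 14.9 CPM in control, at 13.9, 9.76 and 12.6 CPM with DAC, at 11.2, 9.33 and 13.8 CPM with SFN, and at 8.38, 6.46 and 12.5 CPM with DAC+SFN. Every DAC+SFN sample was below every control sample, and the log2 fold change was -0.76 (SE 0.14, adjusted p = 0.00118, or 0.0604 without the replicate number in the model). Brip1 encodes a helicase that binds BRCA1 and is also a Fanconi protein. Its values were 70.5, 68.7 and 58.2 CPM in control, 55.2, 52.6 and 48.9 CPM with DAC, 56.8, 51.7 and 52.99 CPM with SFN, and 38.6, 43.6 and 52.9 CPM with DAC+SFN. All treated samples were below all control samples, and the log2 fold change with DAC+SFN was -0.55 (SE 0.10, adjusted p = 0.00127). Brca2, a central mediator of homologous recombination, was at 49.4, 40.8 and 45.8 CPM in control, at 47.4, 33.9 and 37.2 CPM with DAC, at 37.2, 28.4 and 35.5 CPM with SFN, and at 35.96, 26.1 and 41.0 CPM with DAC+SFN. With DAC+SFN its log2 fold change was -0.41 (SE 0.094, adjusted p = 0.00443, or 0.146 without the replicate number), although DAC+SFN replicate 3 was above control replicate 2.

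Rad54b, a DNA translocase of recombination, had a log2 fold change of -0.53 (adjusted p = 0.00580), Palb2, the bridge between BRCA1 and BRCA2, of -0.47 (adjusted p = 0.0120), and Bard1, the partner of BRCA1, of -0.39 (adjusted p = 0.00346). Rad54l, the other translocase, had -0.30 (adjusted p = 0.0192). The recombination genes Xrcc3 (-0.23, adjusted p = 0.0778) and Xrcc2 (-0.16, adjusted p = 0.245) did not pass. Rad54b shares 2068 exon bases with Fsbp on the same strand, and Rad54l shares 1184 with Lrrc41 on the opposite strand, so their values are less certain.

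The promoters of 4 of the 5 genes with the smallest p-values for DAC+SFN are shown because these genes fell together. The 220 bases run from 190 before to 30 after the RefSeq start on GRCm38.p6. They are written 5′ to 3′ on the strand of the gene, and Rad51c has 2 starts. Capitals mark an E2F core (TTCGCGC or TTGGCGC) or a CCAAT box (CCAAT) on either strand, and no CHR (TTTGAA or TTCGAA) was found in them.
Brca1, chr11:101551926-101552145, minus strand: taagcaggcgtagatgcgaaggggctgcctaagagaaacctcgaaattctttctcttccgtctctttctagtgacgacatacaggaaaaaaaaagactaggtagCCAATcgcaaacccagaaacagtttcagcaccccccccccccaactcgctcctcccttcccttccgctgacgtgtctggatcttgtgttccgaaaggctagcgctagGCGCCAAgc
Blm, chr7:80534969-80535188, minus strand: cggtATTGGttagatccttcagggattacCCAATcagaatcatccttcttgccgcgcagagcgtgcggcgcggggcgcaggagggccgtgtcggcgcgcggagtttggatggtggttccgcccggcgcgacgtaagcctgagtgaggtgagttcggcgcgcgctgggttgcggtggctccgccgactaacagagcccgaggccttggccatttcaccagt
Rad51c (downstream start), chr11:87404477-87404696, minus strand: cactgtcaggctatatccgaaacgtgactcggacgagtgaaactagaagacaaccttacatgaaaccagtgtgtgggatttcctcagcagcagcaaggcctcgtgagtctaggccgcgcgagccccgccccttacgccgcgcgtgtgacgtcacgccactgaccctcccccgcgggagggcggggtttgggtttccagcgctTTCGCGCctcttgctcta
Rad51c (upstream start), chr11:87404925-87405144, minus strand: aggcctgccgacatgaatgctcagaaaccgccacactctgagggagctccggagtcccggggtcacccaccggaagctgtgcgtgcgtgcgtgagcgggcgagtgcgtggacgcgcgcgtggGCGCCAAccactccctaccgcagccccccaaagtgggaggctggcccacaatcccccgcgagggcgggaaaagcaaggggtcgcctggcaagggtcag
Brip1, chr11:86201164-86201383, minus strand: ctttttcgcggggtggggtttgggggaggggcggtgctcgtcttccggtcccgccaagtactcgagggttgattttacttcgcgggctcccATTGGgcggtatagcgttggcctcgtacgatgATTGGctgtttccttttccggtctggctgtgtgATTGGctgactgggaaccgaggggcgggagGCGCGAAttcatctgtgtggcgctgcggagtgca

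In these letters Brca1 holds a CCAAT box from -86 to -82 and an E2F core from 22 to 28 relative to the start. Brip1 holds 3 CCAAT boxes and an E2F core across its start, each start of Rad51c has an E2F core, and Blm has 2 CCAAT boxes and no E2F core. RefSeq promoters of 300 bases were given for 25 genes of the list, with 27 starts. An E2F core was found in 22.2% of these promoters, in 7.10% of 11510 promoters of genes tested and in 3.89% of all 32851. The 5 genes with it were Brca1, Brip1, Rad51c, Topbp1 and Fancm, of which all but Fancm fell with DAC+SFN. Genes whose promoters held none also fell (Bard1, Blm, Brca2, Chek1, Fancb, Fanci, Fancl, Palb2 and Rad54l), and 19 of all 31 tested fell. A link between the E2F core and the decrease was not tested. A CCAAT box was found in 63.0%, 37.9% and 37.4% of these promoters, a CHR in 7.41%, 13.5% and 19.2%, and the antioxidant response core TGACNNNGC in 18.5%, 14.2% and 12.4%. The promoters of the list held a median of 23 CpG dinucleotides, those of genes tested 21 and all promoters 7. A match is a description of the letters and not a site that was measured.

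Of the 6 genes that trim or unwind the ends, 5 fell with DAC+SFN (median log2 fold change -0.31). Blm encodes the RecQ helicase that works with EXO1 on ends and dissolves joined molecules. It was at 67.2, 53.1 and 58.2 CPM in control, at 53.7, 50.2 and 48.0 CPM with DAC, at 49.5, 39.8 and 43.8 CPM with SFN, and at 36.3, 37.0 and 46.3 CPM with DAC+SFN. The SFN and the DAC+SFN samples were all below the control samples, and the log2 fold change with DAC+SFN was -0.57 (SE 0.095, adjusted p = 4.59e-04). Rbbp8 encodes CtIP, the cofactor that starts the trimming. Its values were 50.7, 47.8 and 45.1 CPM in control, 44.2, 39.5 and 37.2 CPM with DAC, 42.4, 36.5 and 37.3 CPM with SFN, and 34.1, 29.1 and 39.4 CPM with DAC+SFN. Each treatment was below control without overlap, and the log2 fold change with DAC+SFN was -0.49 (SE 0.092, adjusted p = 0.00118).

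Exo1, the exonuclease of long-range trimming and of mismatch repair, was at 64.2, 66.4 and 59.9 CPM in control, at 58.8, 58.0 and 55.03 CPM with DAC, at 59.7, 61.2 and 63.2 CPM with SFN, and at 49.1, 49.3 and 56.0 CPM with DAC+SFN. The SFN samples lay close to the controls and the DAC+SFN samples below them (log2 fold change -0.30, SE 0.069, adjusted p = 0.00434). Rad50, the long coiled-coil ATPase of the MRN complex, was at 151, 127 and 121 CPM in control, at 143, 111 and 108 CPM with DAC, at 134, 106 and 113 CPM with SFN, and at 128, 101 and 117 CPM with DAC+SFN. Its groups overlapped, replicate 1 was the highest in each, and the log2 fold change with DAC+SFN was -0.21 (SE 0.062, adjusted p = 0.0195, or 0.332 without the replicate number). Nbn, the MRN subunit that recruits ATM, fell as well (log2 fold change -0.32, adjusted p = 0.0188), while the nuclease Mre11a had -0.15 (adjusted p = 0.0903).

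**Figure D2:**
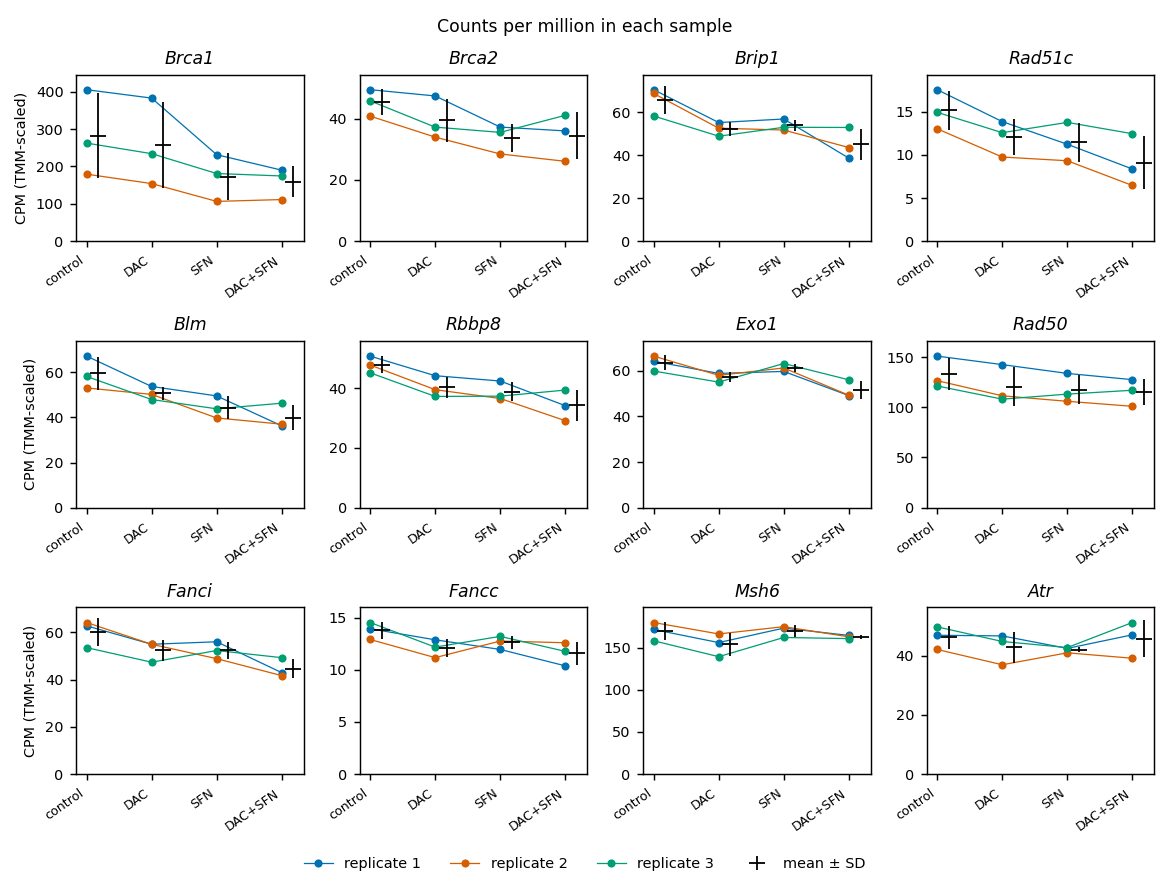
TMM-scaled CPM (y axes, each from 0) of 12 genes in the 4 groups, with each replicate number as a coloured point and line and the mean ± SD of 3 replicates in black. Brca1 replicate 2 (107 to 179 CPM) lies below replicates 1 and 3 in every group, and in Brip1, Rad51c, Rbbp8 and Blm the DAC+SFN point of replicate 3 lies above those of replicates 1 and 2.

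Of the Fanconi genes 4 of 9 fell with DAC+SFN (median log2 fold change -0.25). Fanci, of the pair that receives ubiquitin, was at 62.7, 64.1 and 53.5 CPM in control, at 54.9, 54.9 and 47.4 CPM with DAC, at 56.0, 48.8 and 52.3 CPM with SFN, and at 42.9, 41.7 and 49.3 CPM with DAC+SFN. All DAC+SFN samples were below all controls (log2 fold change -0.43, SE 0.089, adjusted p = 0.00240). Its partner Fancd2 fell as well (log2 fold change -0.32, SE 0.077, adjusted p = 0.00588). Fancl, the ubiquitin ligase of the core complex, had -0.49 (adjusted p = 0.0141) and Fancb, another core subunit, -0.48 (adjusted p = 0.0270). Fanci shares 921 exon bases with Polg and Fancl 462 with Vrk2, both on the opposite strand, and the strand setting of the counting is not given in the sources used here.

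The other core subunits did not pass. Fancc was at 13.9, 12.9 and 14.5 CPM in control, at 12.9, 11.2 and 12.2 CPM with DAC, at 11.95, 12.8 and 13.2 CPM with SFN, and at 10.4, 12.6 and 11.8 CPM with DAC+SFN. All its DAC+SFN samples were below the controls, but the log2 fold change was -0.25 (SE 0.11, adjusted p = 0.0863). Fancg had -0.19 (adjusted p = 0.112) and Fanca -0.15 (adjusted p = 0.0993), with 920 exon bases of Fanca shared with Zfp276. Fance (0.010, SE 0.099) and Fancm, the translocase that anchors the core complex to DNA (0.0032, SE 0.072), were near 0.

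Among the signalling genes, Chek1 (log2 fold change -0.40, SE 0.092, adjusted p = 0.00469) and Topbp1, the activator of ATR (-0.27, SE 0.065, adjusted p = 0.00636), fell with DAC+SFN. The kinases Atm (0.060, SE 0.068), Atr (-0.017, SE 0.072) and Chek2 (-0.069, SE 0.066) did not pass, and adjusted p was between 0.454 and 0.880 for them. Msh6 was at 171, 180 and 158 CPM in control, at 156, 166 and 139 CPM with DAC, at 173, 175 and 162 CPM with SFN, and at 164, 163 and 161 CPM with DAC+SFN. The groups overlapped, and the log2 fold change with DAC+SFN was -0.059 (SE 0.054, adjusted p = 0.433).

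**Figure D3:**
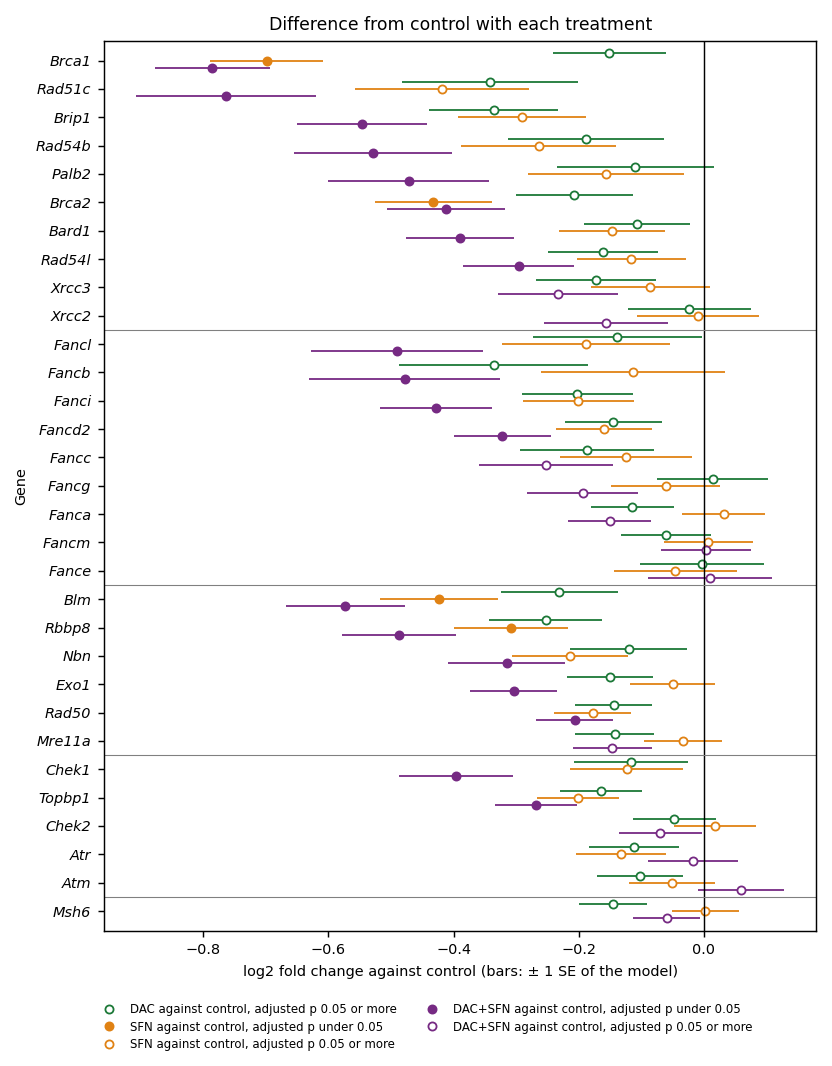
Log2 fold change (x axis, ± 1 SE) of the 31 genes (y axis, by role) with DAC, SFN and DAC+SFN against the same control samples. Filled points have an adjusted p under 0.05, which holds for 19 genes with DAC+SFN, 4 with SFN and 0 with DAC.

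SFN alone lowered 4 of the 31 genes, Brca1, Brca2, Blm and Rbbp8, and raised 0, where 5.65% of all genes tested fell. Brca1 fell most (log2 fold change -0.70, SE 0.091, adjusted p = 1.65e-04), and SFN was below the control of its number in 3 of 3 replicates. Brca2 (-0.43, SE 0.094, adjusted p = 0.00688) and Blm (-0.42, SE 0.094, adjusted p = 0.00774) followed, and in both all SFN samples were below all controls. Rbbp8 had -0.31 (SE 0.090, adjusted p = 0.0340). Over the 31 genes the median was -0.13 (0.0040 over all genes), and 18 were lower in 3 of 3 replicates (23.8% of all genes tested). Without the replicate number in the model, 0 of the 31 genes fell with SFN, and adjusted p was 0.399 for Brca1, 0.265 for Brca2, 0.142 for Blm and 0.231 for Rbbp8. The count was 2 without control replicate 1, control replicate 2 or SFN replicate 2, and 8 without DAC+SFN replicate 3, which enters through the shared error of the model. In these fits 856, 777, 728 and 2105 of all genes were called in either direction, and 1619 with all samples. Brca1 fell every time, Brca2 was lost without control replicate 2, Blm without control replicate 1 or SFN replicate 2, and Rbbp8 without control replicate 1 or 2 or any of the 3 SFN samples, with adjusted p between 0.0524 and 0.171 where lost.

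DAC alone changed 0 of the 31 genes in edgeR, and 0.18% of all genes tested passed in either direction. DESeq2 also gave 0. The smallest adjusted p-values were those of Brip1 (log2 fold change -0.34, SE 0.10, adjusted p = 0.238), Rbbp8 (-0.25, SE 0.091, adjusted p = 0.344) and Msh6 (-0.14, SE 0.054, adjusted p = 0.372). At an unadjusted p under 0.05, 12 genes were lower (4.04% of all genes tested). In 21 genes DAC was lower in 3 of 3 replicates (20.7% of all genes tested). The median was -0.14 (0.0049 over all genes). Where only the control and DAC samples were fitted, 8 genes fell (Brca1, Brip1, Rad51c, Fanci, Rbbp8, Blm, Topbp1 and Msh6) among 662 genes called. With DAC+SFN replicate 3 left out of the model, Brip1 fell (adjusted p = 0.0330).

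The same agent was measured also on top of the other. DAC+SFN against SFN shares no sample with DAC against control, and 26 of the 31 genes were lower in both (83.9%, and 30.4% of all genes tested). The medians were -0.14 without SFN and -0.15 with it. SFN against control and DAC+SFN against DAC share no sample either, and 24 genes were lower in both (77.4%, and 36.6% of all genes tested), with medians of -0.13 and -0.15.

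**Figure D4:**
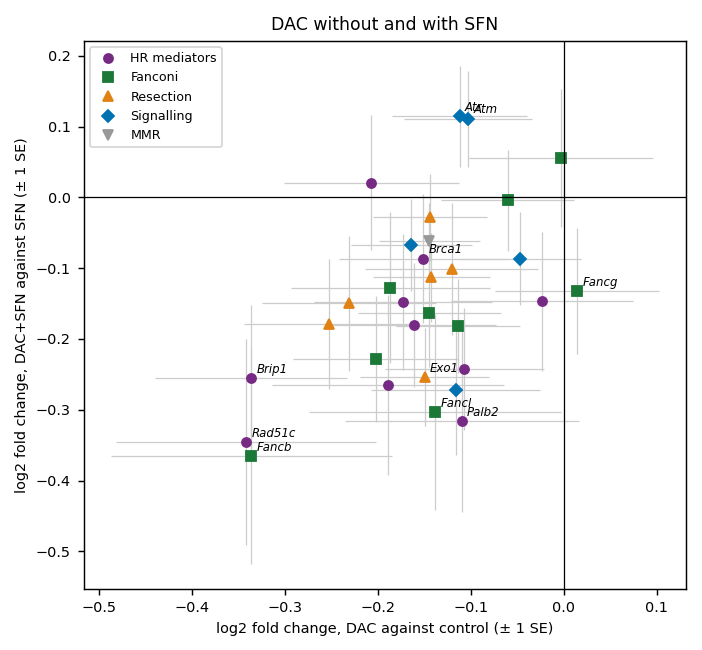
Log2 fold change of each of the 31 genes with DAC against control (x axis) and with DAC+SFN against SFN (y axis), which share no sample, with bars of ± 1 SE and symbols by role. The lower left quadrant holds 26 of the 31 genes, and Atr and Atm lie above 0 on the y axis.

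With both DAC effects averaged, Brip1 (log2 fold change -0.30, SE 0.073, adjusted p = 0.0318) and Exo1 (-0.20, SE 0.049, adjusted p = 0.0289) fell, where 2.15% of all genes tested fell. Fanci was next (-0.22, SE 0.063, adjusted p = 0.0617). Without the replicate number in the model neither Brip1 (adjusted p = 0.243) nor Exo1 (adjusted p = 0.219) passed. The count of genes that fell also rested on single libraries. It was 16 without DAC+SFN replicate 3, 4 without control replicate 3 and 1, Fancb in place of Brip1 and Exo1, without DAC replicate 2. It was 0 without control replicate 1, control replicate 2, DAC replicate 3, SFN replicate 1, SFN replicate 3, DAC+SFN replicate 1 or DAC+SFN replicate 2. Among all genes 1367 were called in either direction without DAC+SFN replicate 3, and 607 with all samples.

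Compared to DAC alone, the combination lowered Brca1 (log2 fold change -0.63, SE 0.091, adjusted p = 5.00e-04), Blm (-0.34, SE 0.095, adjusted p = 0.0251) and Bard1 (-0.28, SE 0.086, adjusted p = 0.0378), where 6.6% of all genes tested fell. This count was 1 without DAC replicate 1, DAC replicate 2, DAC+SFN replicate 1 or DAC+SFN replicate 2. It was 11 without DAC replicate 3, 13 without DAC+SFN replicate 3 and 0 without the replicate number in the model. In these fits 1712, 2381 and 20 of all genes were called in either direction, and 1879 in the main fit. Compared to SFN alone, 0 of the 31 genes passed in edgeR and 0 in DESeq2, where 0.67% of all genes tested fell, and 10 were lower at an unadjusted p under 0.05 (8.46% of all genes tested). The smallest adjusted p there was that of Exo1 (-0.25, SE 0.069, adjusted p = 0.0725). Without DAC+SFN replicate 3, 6 genes fell (Brip1, Rad51c, Fanci, Rbbp8, Exo1 and Chek1). The calls among all genes rose as well, from 187 to 700 in either direction.

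The interaction asks whether the change with both agents differed from the sum of the single changes on the log2 scale. It passed for 0 of the 31 genes and for 0% of all genes tested in edgeR, and for 0 of the 31 in DESeq2. At an unadjusted p under 0.05 there were 2 genes, Atr (0.23, SE 0.10, adjusted p = 0.850) and Atm (0.21, SE 0.097, adjusted p = 0.850), where 5.87% of all genes tested passed in either direction. Brca1 had an interaction of 0.065 (SE 0.13) and Rad51c of -0.0039 (SE 0.20).

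Replicate numbers differed in 7 of the 31 genes once the group was accounted for (adjusted p under 0.05, 33.9% of all genes tested). Brca1 had the largest difference, with a mean over the 4 groups of 302 CPM in replicate 1, 138 CPM in replicate 2 and 213 CPM in replicate 3. Its log2 difference of replicate 2 from replicate 1 was -1.10 (adjusted p = 1.20e-06 over the 3 numbers), where its log2 fold change with DAC+SFN was -0.79. Rad50 (-0.32, adjusted p = 7.26e-04) and Brca2 (-0.40, adjusted p = 0.00454) were next by p, and Rad51c, Atr, Atm and Xrcc3 also passed. All but Xrcc3 were lower in replicate 2 than in replicate 1. The library numbers in the labels follow the replicate number, so a library batch and a culture cannot be told apart here. This count was 4 without DAC+SFN replicate 2.

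The rest of each pathway was counted from lists of genes outside the 32. Of 22 other recombination genes 11 fell with DAC+SFN and 0 rose (median log2 fold change -0.25). Rad51ap1, a cofactor of recombination, went from 61.0 ± 2.55 to 46.6 ± 3.81 CPM (log2 fold change -0.39, adjusted p = 0.00133). Mms22l, of a complex at broken forks, had -0.31 (adjusted p = 0.00267). Of 12 other Fanconi genes 2 fell, a share close to the 14.7% of all genes tested that fell. They were Usp1, which takes ubiquitin off FANCD2 (-0.45, adjusted p = 0.00138), and Mad2l2, a subunit of polymerase zeta (-0.32, adjusted p = 0.0319). The median there was -0.12.

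Of 16 other mismatch repair genes 12 fell (median -0.38). Rfc3, of the clamp loader (-0.49, adjusted p = 1.82e-04), and Hmgb1, a chromatin protein (-0.53, adjusted p = 2.74e-04), had the smallest p-values, and the 12 also held Rfc2, Rfc4, Rfc5, Rpa2, Rpa3 and Lig1, which serve DNA replication as well. The mismatch factors Msh3 and Pms1 were also among them.

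Of 19 other signalling genes 9 fell (median -0.13), led by Timeless (-0.40, adjusted p = 2.72e-04) and Tipin (-0.43, adjusted p = 5.07e-04), which form the fork protection complex. Other repair routes were counted as well. In end joining 1 of 10 genes fell, Aplf (-0.26, adjusted p = 0.0210), a share below the 14.7% of all genes tested that fell. Xrcc6, the KU70 subunit, was at -0.17 (adjusted p = 0.0654). In base excision repair 5 of 20 fell (median -0.095), among them the flap nuclease Fen1 (-0.34, adjusted p = 2.81e-04) and Parp2 (-0.35, adjusted p = 0.00203), beside Neil3, Mbd4 and Apex1. In nucleotide excision repair 3 of 20 rose and 1 fell (median -0.060), shares no higher than the 17% and 14.7% of all genes tested that rose and fell, and the nuclease gene Ercc5 went up from 72.8 ± 7.42 to 109 ± 11.5 CPM (0.58, adjusted p = 3.34e-05) and Ercc6 by 0.40 (adjusted p = 0.00133). Ddb1 (0.21, adjusted p = 0.00932) was the third to rise there, and Cetn2 (-0.28, adjusted p = 0.0190) the one that fell.

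Genes of the cell cycle moved beside the 32 with DAC+SFN. Of 29 genes of S phase and replication 25 fell and 1, Ccne1, rose with DAC+SFN (median -0.30), with Cdc45 at -0.55 (adjusted p = 6.48e-05) and Mcm7 at -0.49 (adjusted p = 1.32e-04). Of 19 mitosis genes 17 fell (median -0.36), with Ccna2 at -0.47 (adjusted p = 1.76e-04) and Birc5 at -0.50 (adjusted p = 2.09e-04). Of 14 p53 target genes tested 13, all but Bbc3, rose (median 0.91, where 17% of all genes tested rose), with Trp53inp1 at 0.94 (adjusted p = 2.55e-07) and Plk2 at 1.22 (adjusted p = 3.75e-07). With SFN alone 2 of the 29 S phase genes fell and 1 rose, 1 of the 19 mitosis genes fell, and 11 of the 14 p53 targets rose. With DAC alone 0 of the S phase and mitosis genes passed and 3 p53 targets rose. The summed level of the S phase genes was 5117 to 5954 CPM in control and 4100.0 to 4530 CPM with DAC+SFN, and that of the mitosis genes 3836 to 4105 CPM and 2955 to 3365 CPM. By flow cytometry the study reported no cell cycle arrest with these treatments, and it counted fewer viable cells with the combination than in control. The part of the share of cycling cells in the changes of the 32 genes was not tested.

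**Figure D5:**
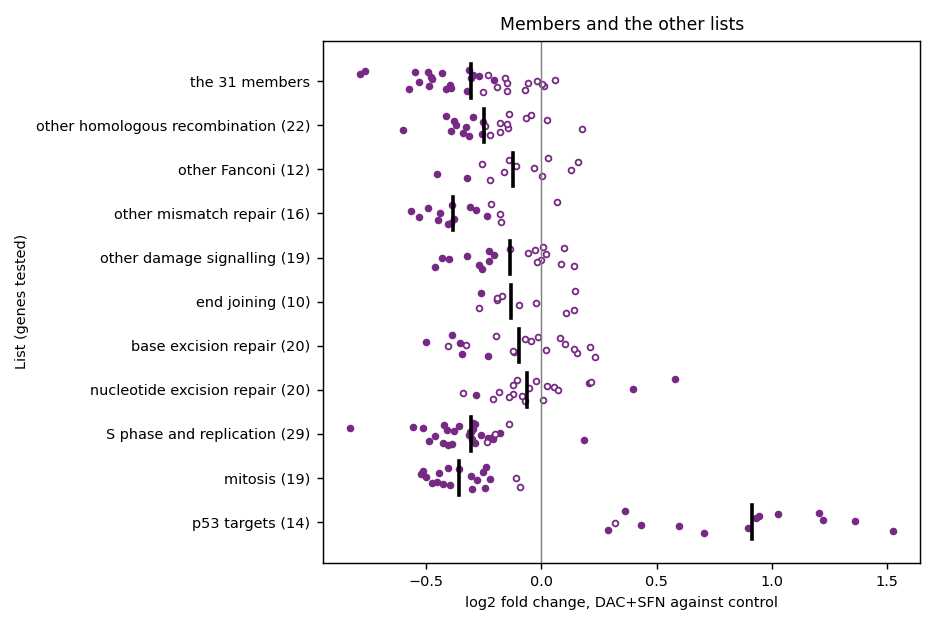
Log2 fold change with DAC+SFN against control (x axis) of the 31 genes tested and of 10 lists (y axis, number of genes tested in brackets). Each point is a gene, filled where adjusted p was under 0.05, and the black bar is the median, which is -0.30 for the 31 genes, -0.38 for other mismatch repair, -0.36 for mitosis and 0.91 for p53 targets.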

How the data were processed

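Poly(A) RNA of 12 B16F10 samples was sequenced with a stranded kit as single reads of 75 bases. Per the submitters' processing notes and the study's methods, the authors used FastQC 0.11.7, Trimmomatic 0.38, TopHat2 2.1.1 and HTSeq on mm10, and discarded reads aligned to more than 1 place. The deposited values are raw counts per gene symbol, without normalization. The annotation and strand setting of the counting are not given in the sources used here, so reads of overlapping genes may be shared.

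Counts were tested with edgeR 4.0.16 (legacy quasi-likelihood fit, TMM, two-sided) in R 4.3.3, in a model of group and replicate number over all 12 samples, since the study corrected for a batch that it does not name. The filter was 1 CPM in 3 samples. The SE was obtained by dividing the log2 fold change by the square root of F. After group means were removed, the 18 pairs of samples with the same number correlated across genes (r from 0.270 to 0.732, other pairs -0.267 on average), so the numbers were taken as pairs. The pairing was weak for DAC+SFN replicate 1, with r of 0.270 to control, 0.276 to DAC and 0.473 to SFN replicate 1. DAC+SFN replicate 3 was about as close to control replicate 1 (0.242) and DAC replicate 1 (0.282), but not to SFN replicate 1 (0.065). No samples were copies of each other (chi-square of 13.6 to 37.5 per gene between replicates). The fit was tested on simulated data.

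The 32 genes and the lists were chosen with earlier results of these data known. They were followed by symbol, because the deposited identifiers of Nbn and Rad54l belong to Artn and Atrx, and the other 30 matched. Values in every sample are given for the 5 genes with the smallest p for DAC+SFN against control, the 3 with the smallest p for SFN, DAC, averaged DAC and replicate number, and the highest and lowest per kilobase. For each other list the 2 genes with the smallest p for DAC+SFN are named, and other genes of the lists were named after their values were seen. Positions and exon lengths are from GENCODE M21 and promoters from RefSeq (GRCm38.p6). The alternatives were DESeq2 1.42.0 (size factors, Wald test), the version 4 and robust fits of edgeR, other count filters, no replicate block, only the groups compared, a prior count of 2 in place of 0.125, other thresholds, a promoter window of 250 bases, and each sample left out. Leaving out each replicate number in all groups was added after seeing the data. Python 3.11.15 and matplotlib 3.10.9 were used for the figures.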

Additional observations from a re-analysis of the deposited data

Results flagged for a closer look

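The estimates of Atr with SFN had opposite signs in the absence and presence of DAC, but neither change passed. SFN was below control in 3 of 3 replicates (log2 differences of -0.14, -0.039 and -0.22 in replicates 1, 2 and 3, log2 fold change -0.13, adjusted p = 0.243). DAC+SFN was above DAC in 3 of 3 (0.011, 0.083 and 0.19, log2 fold change 0.095, adjusted p = 0.407). The difference of the 2 changes was 0.226 (SE 0.102) by the interaction term, with an unadjusted p of 0.0422 and an adjusted p of 0.850 in edgeR's quasi-likelihood test, so it does not pass over all genes.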

How the results depend on the processing

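In no alternative did any of the 19 genes that fell with DAC+SFN, or the 4 with SFN, change direction. All 31 genes were followed for direction only with DAC+SFN against control, and reversals there were in genes near 0. With DAC, SFN and averaged DAC, direction was followed only in the genes called or with the smallest p. Fancm was -0.0014 with DESeq2's size factors and -0.0014 in its Wald test, -0.019 with no filter, -8.72e-04 with at least 10 counts in every sample, and -0.0096 with only the groups compared. Fance was -0.013 with no filter and -0.0011 with only the groups compared. With single samples left out, Fancm ranged from -0.084 to 0.039, Fance from -0.054 to 0.096, Atm from -0.035 to 0.12 and Atr from -0.079 to 0.022.

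The counts of the 31 genes moved by over 1.5 times as follows. With no low-count filter they were 1 for DAC, 7 for SFN, 8 for DAC+SFN against DAC, 1 against SFN and 8 for averaged DAC. Without the replicate block they were 0 for SFN, 10 for DAC+SFN, 0 against DAC and 0 for averaged DAC, and the block changed no count of DAC, of DAC+SFN against SFN or of the interaction. With only the groups compared they were 8 for DAC, 8 for SFN, 1 against DAC and 4 against SFN. The Wald test of DESeq2 gave 7 for SFN, 5 against DAC and 5 for averaged DAC. At an unadjusted p under 0.05 they were 12 for DAC, 10 for SFN, 15 against DAC (3553 of all genes), 10 against SFN, 2 for the interaction and 19 for averaged DAC (2407 of all genes). A fold above 2 left 0 in SFN, DAC+SFN, DAC+SFN against DAC and averaged DAC. With single samples left out, the ranges were 0 to 1 for DAC, 2 to 8 for SFN, 14 to 21 for DAC+SFN, 1 to 13 against DAC, 0 to 6 against SFN, 0 to 0 for the interaction, 0 to 16 for averaged DAC and 4 to 10 for replicate number. With a replicate number left out, they were 1 to 10 for SFN, 7 to 20 for DAC+SFN, 1 to 16 against DAC, 0 to 2 against SFN, 0 to 5 for averaged DAC and 2 to 9 for replicate number. In a promoter window of 250 bases before the start, 3 genes in place of 5 held an E2F core. Genes at a few CPM have wide errors at these depths (SE of 0.15 for Fancb and 0.14 for Fancl).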

Other observations

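Genes beside Brca1 on chromosome 11 were looked at after the values of Brca1 had been seen. Nbr1 starts 193 bases from the start of Brca1 and is read the other way. It was at 167, 158 and 152 CPM in control and at 183, 161 and 168 CPM with DAC+SFN (log2 fold change 0.10, adjusted p = 0.183 in edgeR's quasi-likelihood test), and with SFN its log2 fold change was -0.12 (adjusted p = 0.176). Rnd2, a small GTPase gene 16910 bases beyond the other end of Brca1, was at 21.8, 17.5 and 23.9 CPM in control, at 15.6, 10.8 and 15.3 CPM with SFN and at 13.2, 12.1 and 14.6 CPM with DAC+SFN. The treated samples with SFN were all below the controls, with log2 fold changes of -0.60 (adjusted p = 0.00103) with SFN and -0.66 (adjusted p = 2.47e-04) with DAC+SFN. Its log2 difference of replicate 2 from replicate 1 was -0.39, where that of Brca1 was -1.10. Among the other genes looked at there, this difference was -0.77 for Ifi35, -0.53 for Tmem106a, -0.14 for Nbr1, 0.089 for Vat1 and 0.22 for Rpl27. Ifi35 rose with DAC+SFN (log2 fold change 0.44, adjusted p = 0.0228). Vat1, which overlaps the start of Rnd2, had a log2 fold change of -0.012 with DAC+SFN (adjusted p = 0.915).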
